A study of Mus musculus with 6 samples.

Results

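Srxn1 and 9 other genes of the antioxidant response governed by the transcription factor NRF2 were followed on the arrays of a mouse pre-B cell line, on which every probe named for Srxn1, Nfe2l2, Keap1, Nqo1, Hmox1, Gclc, Gclm, Txnrd1, Prdx1 or Gsr in the array design was taken. These 10 genes, of 27443 named on the array, have 13 of its 55681 probes. Srxn1 was picked because of its higher signal on the miR-26a arrays than on the control arrays, so its values on the miR-26a arrays are described without a test. The other 9 genes were taken for their place in the pathway, with earlier results of these data known.

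The cells were 1676 cells, a B cell precursor line of the genotype SLP-65-/- LAT-/-, which every group shares and which lacks a pair of signaling adaptors. All cells were kept in the growth factor IL-7, infected with a retroviral vector and selected with puromycin. The control cells carried the control vector, the miR-26a cells a vector for hsa-miR-26a-2, and the sponge cells a transcript that sequesters the miR-26 family. Each group has 2 arrays, 1 from each of 2 experiments with separately generated cells. The labels number the arrays as replicates, and arrays with the same number were taken here as 1 experiment. Because the groups come from a single cell line and from bulk RNA, a lower signal from fewer cells of a kind and one from less RNA per cell cannot be told apart.

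All 10 probes for 8 pre-B cell markers passed the scanner's limit for signal well above background on the 6 arrays, with log2 signals from 7.30 for Pax5 to 17.80 for Vpreb1, a part of the surrogate light chain. Of the erythroid markers, Epor and Klf1 were well above background on 6 arrays, Hba-a1 on 5 and Hbb-b1 on 0, with a highest log2 signal of 4.91. Of 7 probes for 5 T cell markers, 2 passed on all arrays, Cd3e at 8.71 to 9.11 and 1 of the Cd4 probes at 9.29 to 9.76, and those of Cd8a passed on none. Of 15 probes for 8 myeloid markers, 8 passed it on all arrays. That of Csf3r lay between 15.65 and 16.06 and made up most of the summed myeloid signal given next. Lyz2 passed on 1 array, the Mpo probes on 1 and 0, and the Emr1 probes on 5 and 0. The summed signal of the pre-B list ran from 453900 to 486000 in control, from 443200 to 473000 in miR-26a and from 443000 to 495800 in sponge cells, and that of the myeloid list from 56550 to 68590, from 58960 to 64930 and from 55130 to 73580. The T cell list summed to 1401 to 1429 in control, 1315 to 1457 in miR-26a and 1087 to 1225 in sponge cells, and the erythroid list to 59.5 to 65.2, 70.1 to 86.0 and 72.5 to 72.8. The arrays had from 28823 to 29800 such spots each, and having only 2 arrays per group bounds the precision throughout.

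NRF2, encoded by Nfe2l2, is held in the cytoplasm by KEAP1, which delivers it to degradation. Oxidants and electrophiles modify KEAP1, NRF2 then accumulates, pairs with a small MAF protein and binds antioxidant response elements in front of genes for glutathione synthesis, thiol reduction and detoxification. SRXN1, sulfiredoxin, restores peroxiredoxins that peroxides have overoxidized, which ties it to PRDX1, an abundant peroxiredoxin of the cytosol. Proliferating cells rely on this system to clear the peroxide that their metabolism makes.

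The mature miRNAs are shown because the 2 constructs differ in whether they add or sequester this family. They are the RefSeq mouse sequences (GRCm38.p6), and capitals mark the seed, bases 2 to 8. miR-26a-5p lies at chr9:119031811-119031832 and at chr10:126995543-126995564, and miR-26b-5p at chr1:74394324-74394344, all on the plus strand.
miR-26a-5p: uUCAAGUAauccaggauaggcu
miR-26b-5p: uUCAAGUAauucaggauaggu
Both carry the same seed. The seed's complement was found in 0 of the 13 member probes of 60 bases, and in 240 of all 55681 probes (0.431%). The probes cover only a short stretch of each transcript, so this says nothing of the rest of it.

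RefSeq promoter windows (GRCm38.p6, 250 bases before to 50 after the start) were matched for 7 of the 10 genes. Hmox1, Gclc and Gsr had no entry. The windows were searched on both strands for TGACNNNGC and TGAGNNNGC, the core letters of the antioxidant response element. The windows of Srxn1 and Nfe2l2, genes on which the results turn, are printed 5′ to 3′ in the direction of the gene, with the matches in capitals. The Srxn1 window lies on the plus strand at chr2:152105274-152105573 and the Nfe2l2 window on the minus strand at chr2:75704614-75704913.
Srxn1: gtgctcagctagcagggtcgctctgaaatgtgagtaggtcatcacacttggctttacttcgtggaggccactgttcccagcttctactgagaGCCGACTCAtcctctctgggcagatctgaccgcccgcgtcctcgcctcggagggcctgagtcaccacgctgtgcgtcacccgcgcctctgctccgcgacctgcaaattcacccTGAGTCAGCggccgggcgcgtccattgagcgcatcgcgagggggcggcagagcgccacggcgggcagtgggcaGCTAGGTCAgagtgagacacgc
Nfe2l2: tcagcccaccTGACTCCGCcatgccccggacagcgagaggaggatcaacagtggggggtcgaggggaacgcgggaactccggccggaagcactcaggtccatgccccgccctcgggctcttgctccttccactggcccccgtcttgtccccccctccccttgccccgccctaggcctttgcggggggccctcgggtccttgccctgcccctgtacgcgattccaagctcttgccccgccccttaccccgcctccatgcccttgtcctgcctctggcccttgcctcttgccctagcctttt
The Srxn1 window holds 3 matches. They start at bases 93, 206 and 279 of the window and read TGAGTCGGC on the minus strand, TGAGTCAGC on the plus strand and TGACCTAGC on the minus strand. Nfe2l2 has 1 match, TGACTCCGC. Gclm has TGACGGTGC, Prdx1 has TGACTCAGC and TGAGAACGC, and 1 of the 3 windows of Txnrd1 has TGACAAAGC. These letters were not in the windows of Keap1 and Nqo1. At least one of the spellings occurs in 9128 of all 32851 promoter windows, or 27.8%. The AP-1 letters TGAGTCA, which overlap the second Srxn1 match and the first Prdx1 match, occur 2 times each in the Srxn1 and Prdx1 windows and in 5.2% of all windows. A match in letters describes the sequence only, and binding was not measured.

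Srxn1 signal was the highest on the miR-26a array of each experiment. Its single probe (mm9 chr2:151937009-151937068) gave normalized signals of 119.5 and 63.6 in the control cells of experiments 1 and 2, of 408.6 and 157.8 in the miR-26a cells, and of 152.3 and 42.2 in the sponge cells. On the log2 scale these are 6.90 and 5.99, 8.67 and 7.30, and 7.25 and 5.40. Both miR-26a arrays thus lay above both control arrays and above both sponge arrays, whereas control and sponge arrays overlapped. The gap to sponge was narrow, with 7.30 for the lower miR-26a and 7.25 for the higher sponge array. The probe was dim, and its second sponge array (42.2) lay below the signal of 50 that the filter uses. The group means were 6.45 ± 0.64 for control, 7.99 ± 0.97 for miR-26a and 6.33 ± 1.31 for sponge (log2, SD, n = 2).

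Within experiment 1 the Srxn1 signal with miR-26a was 3.42-fold that of control, and within experiment 2 it was 2.48-fold. The mean difference of 1.54 on the log2 scale is a 2.91-fold higher signal. Under the 14 alternative settings this difference ran from 1.096, with another background correction (normexp), to 1.89. Against the sponge, miR-26a cells were 2.68-fold and 3.74-fold higher in the 2 experiments, a mean log2 difference of 1.66.

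For the sponge, a test of Srxn1 detected no change, but it was not independent of the choice of this gene. The control arrays that it used also served in that choice. The log2 difference between sponge and control was 0.35 in experiment 1 and −0.59 in experiment 2, with a mean of −0.12 (95% interval −0.64 to 0.40, limma, Benjamini-Hochberg adjusted p = 0.802). The interval leaves room for a change in either direction, and the sign turned when replicate 2 of control (0.23) or of sponge (0.23) was left out.

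Srxn1 also differed between the 2 experiments. Replicate 1 exceeded replicate 2 by 0.91 in control, by 1.37 in miR-26a and by 1.85 in sponge cells (log2). Of the 20168 probes tested, 9 (0.0446%) were higher on replicate 1 in all 3 groups by at least 0.91. That limit is the smallest of the Srxn1 differences, so Srxn1 is among the 9 by construction. Experiment 1 lay on row 1 of the slide and experiment 2 on row 2, so experiment and slide row cannot be told apart. The control arrays lay in column 1, the miR-26a arrays in column 2 and the sponge arrays in column 4. Group and slide column therefore cannot be told apart either, for any probe.

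Of the 10 tested member probes, 8 including that of Srxn1 were higher on replicate 1 than on replicate 2 in every group, against 27.0% of all tested probes. Keap1 and Gclc were the exceptions. The second Prdx1 probe had the next widest gap, with 0.31, 0.47 and 0.43 in control, miR-26a and sponge cells.

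**Figure D1:**
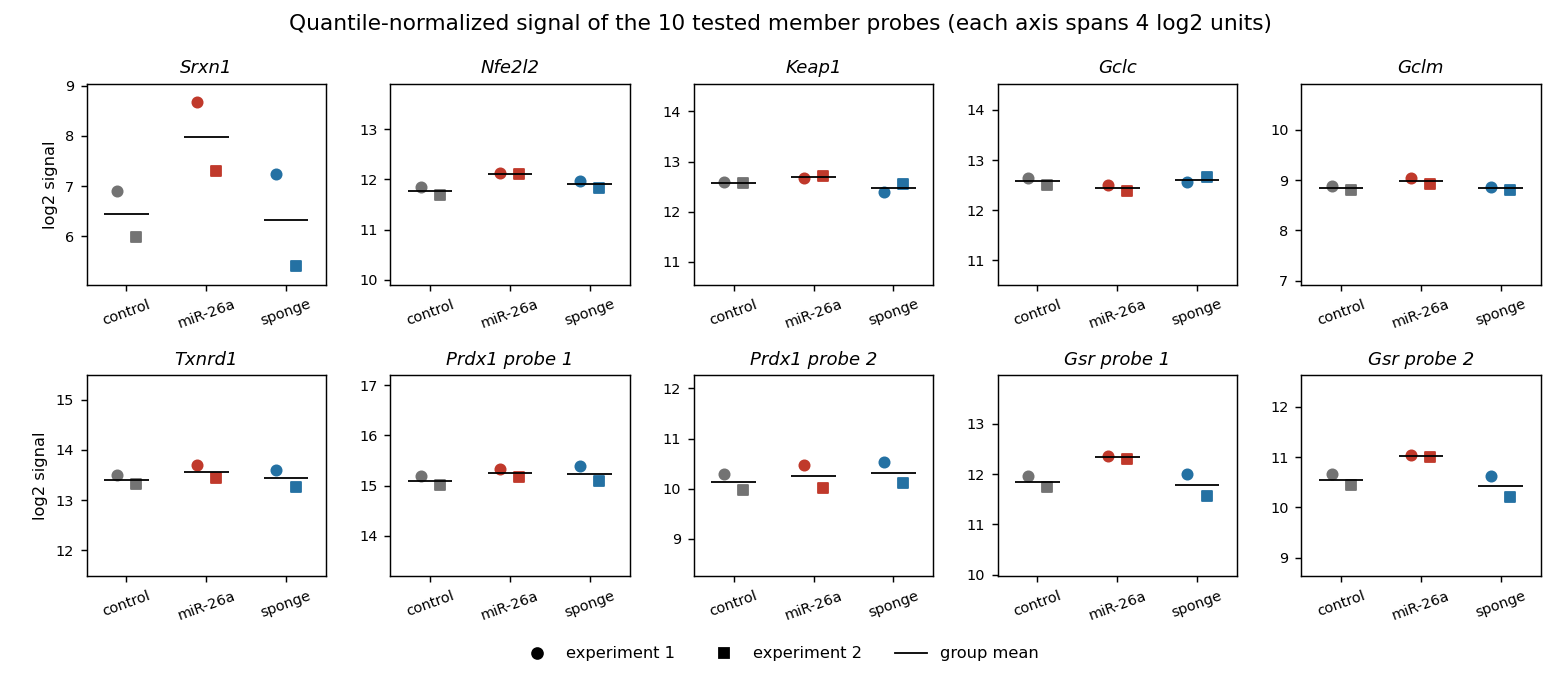
Quantile-normalized log2 signal of the 10 tested member probes on each array (circles experiment 1, squares experiment 2, lines group means, n = 2 per group). The miR-26a arrays of Srxn1 (8.67 and 7.30), Nfe2l2, Keap1, Gclm and both Gsr probes lie above their control and sponge arrays. Only Srxn1 spreads over more than 1 log2 unit between arrays.

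Among the members other than Srxn1, 3 of 9 tested probes passed the threshold of an adjusted p under 0.05 for miR-26a against control, all higher, against 4.50% of all tested probes that were called higher. They are the single Nfe2l2 probe and both Gsr probes, so 2 of the 7 genes tested. The median log2 change of the 9 probes was 0.15, beside 0.01 over all 20168 probes. Both miR-26a arrays lay above both control arrays for 6 of the 10 tested member probes, Srxn1 included, and for 26.5% of all probes. Because Srxn1 was chosen on this contrast, its part in that count is no result.

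Nfe2l2, the gene of NRF2 itself (probe at chr2:75513771-75513830), gave log2 signals of 11.84 and 11.69 in control, 12.12 and 12.10 in miR-26a and 11.97 and 11.83 in sponge cells. Its 2 miR-26a values were nearly equal and above all others. It rose by 0.35 (1.27-fold, SE 0.07, limma adjusted p = 0.0436) with miR-26a. The sponge mean lay between, at 0.14 above control (95% interval −0.04 to 0.32, limma adjusted p = 0.406). Sponge and control arrays overlapped. The miR-26a mean exceeded that of sponge by 0.21 (limma adjusted p = 0.105), so a difference between the constructs was not shown.

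Gsr encodes glutathione reductase, which regenerates reduced glutathione with NADPH, and its 2 neighboring probes gave the same picture. The first (chr8:34808488-34808547) read 11.96 and 11.74 in control, 12.37 and 12.29 in miR-26a and 12.01 and 11.56 in sponge cells. The second (chr8:34808413-34808472) read 10.66 and 10.44 in control, 11.04 and 11.00 in miR-26a and 10.63 and 10.21 in sponge cells. In both, the miR-26a arrays were above the other 4, and control and sponge overlapped.

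With miR-26a the first Gsr probe rose by 0.48 (1.40-fold, SE 0.10, limma adjusted p = 0.0461) and the second by 0.47 (1.39-fold, SE 0.10, limma adjusted p = 0.0486). The sponge differed from control by −0.06 (95% interval −0.32 to 0.19) and −0.14 (−0.39 to 0.12). Of the 9 probes tested for a difference between the constructs, which leave out Srxn1, the 2 of Gsr were called (8.28% of all tested probes were called higher in miR-26a than in sponge). These were 0.55 (limma adjusted p = 0.0249) and 0.61 (limma adjusted p = 0.0187).

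These calls lie near the threshold. With probes averaged per gene, Nfe2l2 passed against control (limma adjusted p = 0.0444) and Gsr did not (limma adjusted p = 0.0533). Against sponge the averaged Gsr passed (limma adjusted p = 0.0254). Without the experiment as a block, 0 of the 9 probes passed for miR-26a against control (lowest limma adjusted p 0.149) and 0 against sponge. Leaving out control replicate 1, control replicate 2 or miR-26a replicate 2 also left 0 calls against control, and leaving out either sponge array left 1 and removed both calls against sponge. The log2 changes against control kept their sign under all 14 settings. They ran from 0.28 to 0.41 for Nfe2l2, and from 0.35 to 0.61 and from 0.33 to 0.61 for the Gsr probes. Without the block, with other filters, with array weights or without a sponge array they did not move. Those settings are therefore no check of the sign.

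The remaining members did not pass the test with miR-26a. Keap1, the NRF2 inhibitor (chr9:21035292-21035732, across an intron), gave 12.58 and 12.57 in control, 12.67 and 12.70 in miR-26a and 12.39 and 12.55 in sponge cells, a log2 difference of 0.11 for miR-26a (95% interval −0.08 to 0.30, limma adjusted p = 0.411) and of −0.11 for the sponge (−0.29 to 0.08, limma adjusted p = 0.513). The miR-26a arrays were above control and the sponge arrays below it, but miR-26a minus sponge was 0.22 with an adjusted p of 0.105 in limma.

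The 2 subunits of glutamate-cysteine ligase, the first enzyme of glutathione synthesis, differed in sign. The catalytic subunit Gclc (chr9:77641296-77641355) gave 12.65 and 12.51 in control, 12.51 and 12.38 in miR-26a and 12.56 and 12.66 in sponge cells. The modifier subunit Gclm (chr3:121962174-121964809, across an intron) gave 8.89 and 8.80, 9.04 and 8.93, and 8.86 and 8.81. The miR-26a difference was −0.14 for Gclc (95% interval −0.35 to 0.08, limma adjusted p = 0.376) and 0.14 for Gclm (−0.03 to 0.31, limma adjusted p = 0.247), and for the sponge it was 0.03 and −0.01.

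Txnrd1, thioredoxin reductase of the cytosol (chr10:82360230-82360289), gave 13.50 and 13.31 in control, 13.70 and 13.43 in miR-26a and 13.60 and 13.27 in sponge cells. All 3 groups overlapped, and the miR-26a difference was 0.16 (95% interval −0.02 to 0.34, limma adjusted p = 0.224). Prdx1, a substrate of sulfiredoxin, gave 15.19 and 15.01, 15.33 and 15.17, and 15.38 and 15.09 at its first probe (chr4:116371818-116371877). Its second probe (chr4:116372422-116372481) gave 10.29 and 9.98, 10.48 and 10.01, and 10.54 and 10.11. Here too the groups overlapped, with miR-26a differences of 0.15 (−0.02 to 0.33) and 0.12 (−0.07 to 0.30) and sponge differences of 0.14 (limma adjusted p = 0.389) and 0.19 (limma adjusted p = 0.304).

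The classical NRF2 targets Nqo1 and Hmox1 could not be tested. The quinone reductase gene Nqo1 (chr8:109912440-109912499) was not well above background on any of the 6 arrays, so no change of it was measured. Hmox1, heme oxygenase, was well above background on all arrays but too dim for the filter, which asks for a signal over 50 on at least 4 arrays. Its first probe (chr8:77624207-77624266) read 5.28 and 4.96 in control, 5.63 and 5.14 in miR-26a and 5.42 and 5.69 in sponge cells, and its second (chr8:77620797-77620856) read 5.49 and 5.82, 5.75 and 5.42, and 5.59 and 5.57. The first probe was higher on both sponge arrays than on the control arrays and the second was not, so the probes do not give one picture.

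With the sponge, 0 of the 10 tested member probes passed limma's adjusted threshold, where 0.00992% of all tested probes did. At an unadjusted p under 0.05, 1 of the 9 probes other than Srxn1 did, the second Prdx1 probe, against 16.1% of all tested probes. The median of these 9 was 0.03, beside 0.00 over all probes. No alternative setting called a member with the sponge.

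**Figure D2:**
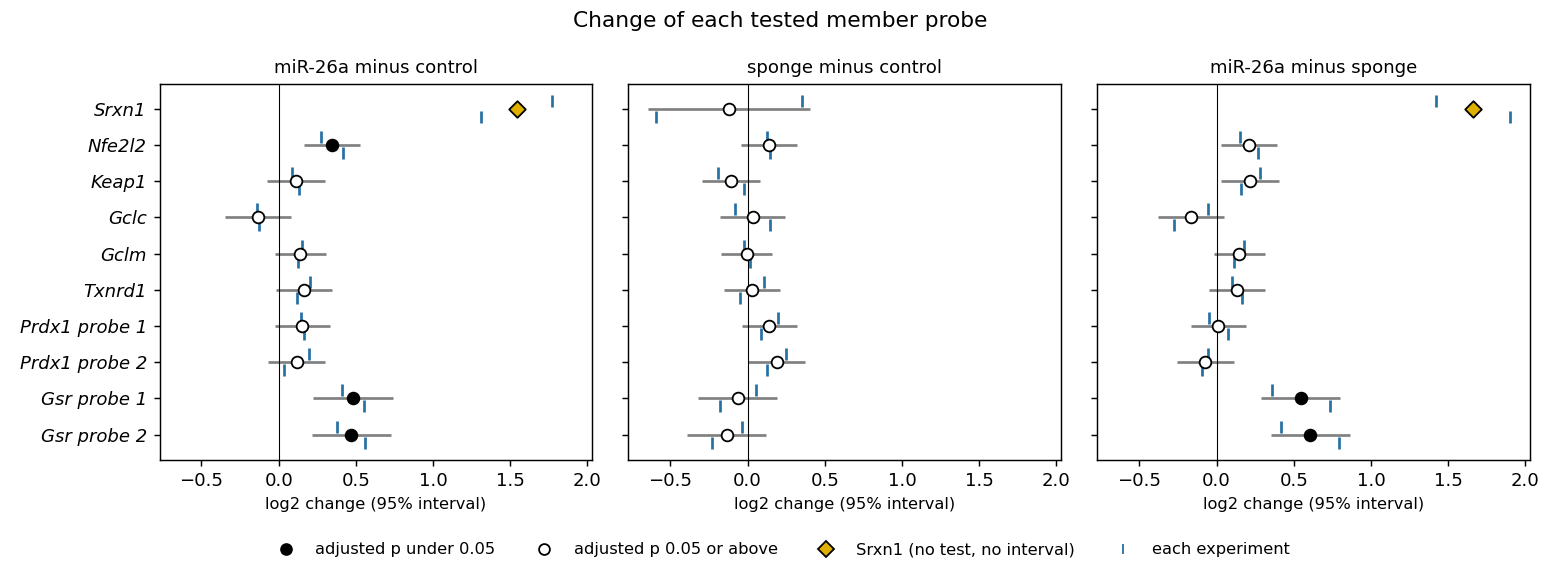
Log2 change of each tested member probe for miR-26a minus control, sponge minus control and miR-26a minus sponge (circles with 95% intervals from limma, filled where the adjusted p was under 0.05, ticks for each experiment). Srxn1 (diamond, 1.54 and 1.66) carries no test where miR-26a is compared, and Nfe2l2 and both Gsr probes are filled at 0.35, 0.48 and 0.47 against control.

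Other genes of the pathway moved in both directions with miR-26a. In 3 lists, of NRF2 regulators, of further NRF2 targets and of peroxide and thiol enzymes, 17 of 77 tested probes passed. Of all tested probes, 4.50% were called higher and 5.14% lower.

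Of 13 NRF2 regulators, 12 were tested with 20 probes. None was called higher and the 2 probes of Bach2 were called lower, Bach2 being a transcriptional repressor that pairs with small MAF proteins. Its probes gave 7.28 and 7.67 in control, 6.74 and 7.30 in miR-26a and 6.85 and 7.56 in sponge cells, and 12.30 and 12.62, 11.76 and 12.31, and 12.08 and 12.65. The groups overlapped, since replicate 2 was higher throughout, but within each experiment miR-26a was below control. Bach2 fell by 0.45 (limma adjusted p = 0.044) and by 0.42 (limma adjusted p = 0.043). The largest positive difference was that of Mafk, a small MAF partner of NRF2, at 0.42 (limma adjusted p = 0.0635). The median of the list was 0.07. Maff was not well above background on any array.

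Of 31 further NRF2 targets, 23 were tested with 29 probes, of which 1 was called higher and 8 lower. Their median was −0.08. The microsomal glutathione transferase Mgst1 read 7.74 and 7.38 in control, 6.56 and 6.11 in miR-26a and 7.60 and 7.59 in sponge cells at the probe with the largest fall. It fell by 1.22 there (SE 0.12, limma adjusted p = 0.00748) and by 0.96 at its other probe (limma adjusted p = 0.00697). Gstm1, a cytosolic glutathione transferase, fell by 0.69 (limma adjusted p = 0.00832) and by 0.83 (limma adjusted p = 0.00775), but the array design places the second of these probes on chromosome 5 and the first on chromosome 3, and related genes of this family could share signal.

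Lower too were Ephx1, microsomal epoxide hydrolase, at 1 of its 2 probes (−0.76, limma adjusted p = 0.0356, the other −0.18), and Ptgr1, prostaglandin reductase (−0.49, limma adjusted p = 0.0155). Cat, catalase, which breaks down hydrogen peroxide, fell by 0.45 at 1 probe (limma adjusted p = 0.0196) and stood at −0.35 at the other (limma adjusted p = 0.0534). Idh1, the cytosolic isocitrate dehydrogenase that makes NADPH, fell by 0.43 (limma adjusted p = 0.0255). In this list only the aldo-keto reductase Akr1b8 was called higher, by 0.39 (limma adjusted p = 0.0308). It gave 8.30 and 8.22 in control and 8.69 and 8.61 in miR-26a cells. Slc7a11, Me1, Gsta3, Cbr3, Abcc1 and Aox1 were not well above background on any array, Gsta4 was on 1, and Osgin1 was too dim for the filter.

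Of 22 peroxide and thiol enzymes, 21 were tested with 28 probes, of which 5 were called higher and 1 lower, with a median of 0.13. Prdx6, another peroxiredoxin, rose at its 3 tested probes, by 0.43, 0.47 and 0.47 (limma adjusted p = 0.0355, 0.0268 and 0.0485). Its brightest probe read 13.65 and 13.40 in control, 14.09 and 13.82 in miR-26a and 13.88 and 13.41 in sponge cells, so control and sponge overlapped. Ggct, an enzyme of glutathione breakdown, rose by 0.51 (limma adjusted p = 0.0154) and Txnrd2, the mitochondrial thioredoxin reductase, by 0.42 (limma adjusted p = 0.0498). Sesn3, a sestrin, fell by 0.42 (limma adjusted p = 0.0216). Gpx7 was not well above background on any array.

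With the sponge, 0 of these 77 probes passed the adjusted threshold in limma, and 5 had an unadjusted p under 0.05, which 16.1% of all tested probes had. The list medians were 0.01, 0.04 and 0.04. Within the lists of regulators, further targets and peroxide and thiol enzymes, the probes farthest from control were, in this order, upwards Palb2 at 0.19, the export pump Abcc4 at 0.40 and Sod2, mitochondrial superoxide dismutase, at 0.15, and downwards, in the same order, Bach2 at −0.27, Cat at −0.21 and Txnip, an inhibitor of thioredoxin, at −0.30 (limma adjusted p of 0.22 or above for each).

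The count of 17 for miR-26a fell to 3 without the experiment block, to 0 and 1 without control replicate 1 and 2, to 10 without miR-26a replicate 2 and to 11 without either sponge array. Among the myeloid markers, Fcgr3 (−0.51, limma adjusted p = 0.034) and the dimmer tested Itgam probe (−0.82, limma adjusted p = 0.0072) were lower with miR-26a. Cd68 (0.33, limma adjusted p = 0.0421) was higher. The brighter Itgam probe (0.06), Csf3r (−0.01) and the tested Csf1r probes (−0.08 and −0.04) were not called, and no pre-B marker was. The part of other cell types in the pathway values was not tested.

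**Figure D3:**
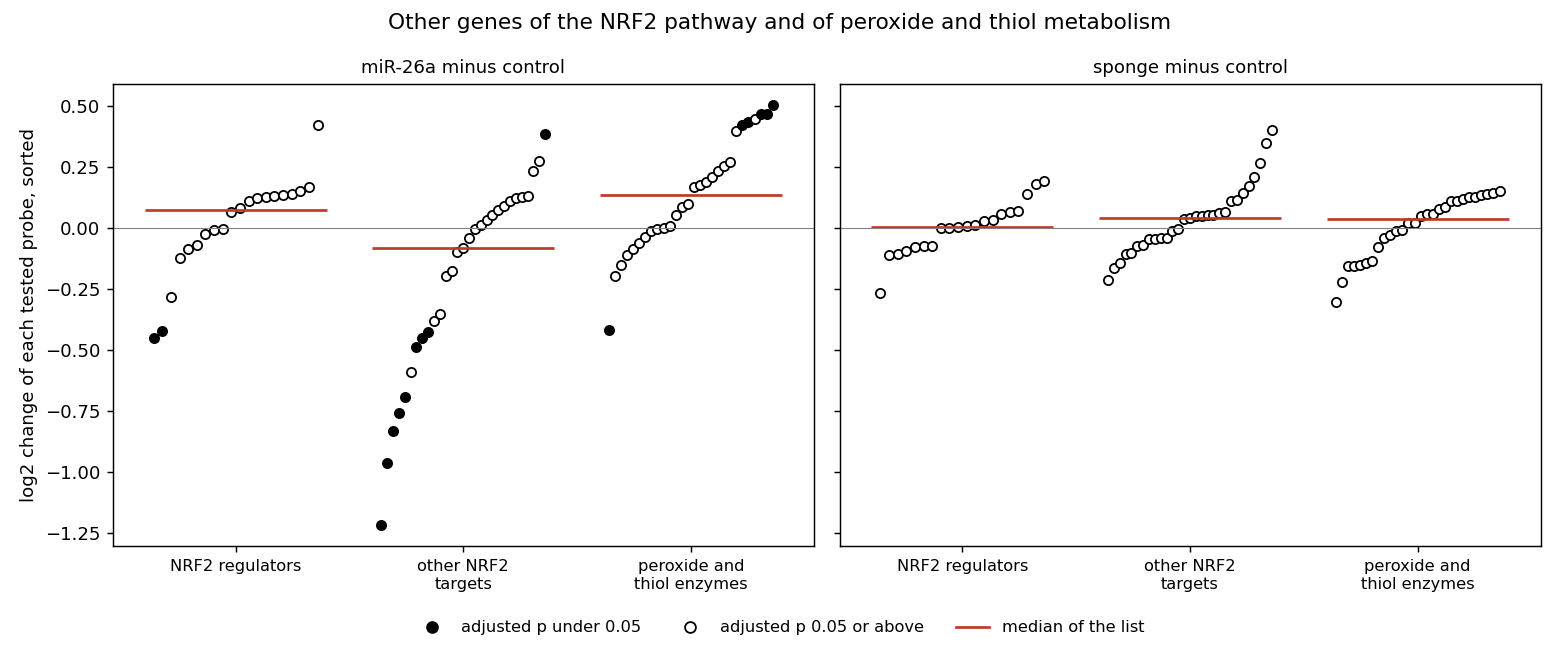
Log2 change of every tested probe of the 3 further lists, sorted within each list, for miR-26a minus control and sponge minus control (filled where limma's adjusted p was under 0.05, red lines list medians). With miR-26a the further NRF2 targets reach down to −1.22 and the peroxide and thiol enzymes up to 0.51, and with the sponge no point is filled.

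The genes most like Srxn1 over the 6 arrays were Hfe, Nfix, Prkch, Mt1 and Tubb3, with Pearson r of 0.999, 0.995, 0.993, 0.990 and 0.985 among 747 named probes that spanned at least 1 log2 unit. With 6 arrays that share 2 experiments, these values describe the arrays only. Mt1, a metal-binding metallothionein, read 10.87 and 10.24 in control, 12.33 and 11.13 in miR-26a and 11.07 and 10.02 in sponge cells. Like Srxn1, it was higher in experiment 1 in every group and highest with miR-26a within each experiment. Among the members, r with Srxn1 was 0.94 and 0.92 for the Gsr probes, 0.93 for Txnrd1 and for Gclm, 0.81 for Nfe2l2, 0.77 and 0.65 for the Prdx1 probes, 0.33 for Keap1 and −0.45 for Gclc.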

How the data were processed

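RNA of 1676 pre-B cells was measured on 6 single-color Agilent mouse arrays of 1 slide. The authors deposited, for each array, scanner output with the intensity of every spot (Agilent Feature Extraction 10.7.1.1 per the labels, the file headers name another release) and a table of quantile-normalized intensity values on a linear scale. Groups and replicate numbers come from the labels. The titles of the control samples quote other sample names, so these arrays may come from an earlier series. Every column was assigned to a sample.

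Here the processed signals of all non-control spots were brought to common quantiles and to log2, and spots of 1 probe were averaged, without outlier spots. A probe entered the test if at least 1 array had it well above background and at least 4 arrays had it above 50. limma 3.58.1 (R 4.3.3) was fitted over 6 arrays with the experiment as a block, as the methods normalize to the control of each experiment, with Benjamini-Hochberg adjustment over the 20168 probes. Arrays with the same number deviated together (correlations 0.38, 0.59 and 0.45). The 3 contrasts share arrays. The fit was tested on simulated data.

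The members, lists and tests were chosen with earlier results of these data known. Named from the lists were genes with a called probe and, per list and contrast, the probes with the largest rise and fall. Some genes of the marker lists are not reported here. Gene names and mm9 positions are those of the array design, some of them old. With 2 arrays per group, p-values measure how far group differences varied between these experiments, with the shift shared by all groups removed. The variance of each probe was moderated over all tested probes. Alternatives were no block, scaling to the 75th percentile, normexp correction (offset 50), the authors' table, 3 other filters, array weights, each array left out, and probes averaged per gene. Plots were drawn with matplotlib 3.10.9.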

Additional observations from a re-analysis of the deposited data

How the results depend on the processing

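The experiment block, filter and single arrays decided which probes passed, while the called member changes kept their direction under every setting tried. Settings that alter only the spread or the set of probes left these changes as they were, so they could not turn the direction. Without the replicate block, the member probes called for miR-26a against control went from 3 to 0, those against sponge from 2 to 0 and the other pathway probes from 17 to 3. Without a filter all 3 counts were 0, and no probe of the array was called for any contrast among the 55681 probes then. A filter of 50 on at least 2 arrays gave 0 members for miR-26a against control, scaling to the 75th percentile gave 1, and averaging the probes of a gene gave 1 (against sponge 1, other pathway 11, as genes). Leaving out 1 array at a time gave 0 to 2 member probes against control, 0 to 2 against sponge and 0 to 13 other pathway probes. For the sponge against control, the counts were 0 for members and other pathway probes under every setting. Some uncalled changes turned their sign, all with the adjusted p above the threshold. When 1 array at a time was left out, the log2 change for sponge against control ran from −0.48 to 0.23 for Srxn1, from −0.080 to 0.14 for Gclc, from −0.032 to 0.019 for Gclm, from −0.029 to 0.089 for Txnrd1 and from −0.22 to 0.088 and −0.28 to 0.0062 for the Gsr probes. That of miR-26a against sponge ran from −0.046 to 0.071 for the first Prdx1 probe. Gclm was also above 0 with the sponge under 75th-percentile scaling (0.0085) and normexp (0.042), and the Prdx1 probe below 0 under 75th-percentile scaling (−0.045). The cause was not tested. Low signal limits what can be seen of Nqo1 and Hmox1, and of Srxn1 on its dimmest arrays. On the arrays, 29.6% to 33.6% of the spots held the scanner software's substitute for a signal too dim to measure.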
